A study of Arabidopsis thaliana with 12 samples.

Results

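The genes described here had strong signals in untreated Arabidopsis thaliana suspension cells and low signals at every time sampled after the cells were moved to a medium that induces tracheary elements. They are 74 probe sets, the groups of short probes by which an Affymetrix ATH1 array reads a transcript, and they read 73 genes, since AT3G44510 has 2. The members were selected on the measured values. Signals under 20 were set to 20, the log2 of each was averaged over the 2 arrays of a day, and the day 0 mean had to lie at least 2.5 above the mean of each later day, with both day 0 signals at 120 or more. A member also had to be read by a probe set of 1 gene for which the platform annotation gives a locus number in place of a symbol, which holds for 11933 of the 22746 probe sets that are not controls. The loci AT1G23160, AT3G10720 and AT1G29670 were left out by name, of which AT1G23160 met these limits. The drop after day 0 is thus the rule itself, and its size is given below as a description with no test. What the rule did not use are the differences among days 2, 4, 6, 8 and 10, and those were tested.

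The series holds 12 arrays of cells of the accession Col-0, 2 for each of 6 days. Day 0 cells are labelled as having no treatment, at 22 C. All later samples came from 7.5 ml of a 7-day-old culture put into 42.5 ml of fresh medium, and were labelled 27 C on days 2, 6 and 10 and 22 C on days 4 and 8. The induction medium is listed with 10 mM boric acid and 1 uM brassinolide in MS salts and 3% sucrose. The other medium listed has MS salts, 3% sucrose and 1 ug/ml of the synthetic auxin 2,4-D, and both media are listed for every sample. Against day 0, hormone, boric acid, the auxin, fresh medium and culture age therefore cannot be told apart, and on days 2, 6 and 10 temperature cannot either. Every step between neighbouring days crosses the labelled temperatures as well. Whether the pair of arrays at each time stems from independent cultures is not labelled, so the p-values below reflect only how far such pairs differ, and that spread could be technical.

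Plant cells kept in suspension on 2,4-D divide without forming organs or vessels. When such cells are moved to a medium with a brassinosteroid, the steroid hormones of plants, part of them can turn into tracheary elements, the conducting cells of xylem, which lay down a patterned lignified wall and then die. Auxin switches on early response genes such as those of the GH3 enzymes, which join auxin to amino acids, and cultured cells also express many enzymes of small-molecule, lipid and defence metabolism. The tables used here give loci and clone-based names for the members, and a descriptive synonym for AT3G13610 alone. The family named beside a locus below is general background knowledge, not a function shown in these cells. The families were grouped after the members had been seen, so they are an order of presentation and carry no test.

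Median signals of the 12 arrays lay between 33.2 and 40.7, and same-day arrays correlated at r between 0.978 and 0.983 in log2 signal over all probe sets. A signal is called dim here when it lies below the 40th percentile of its array, which fell between 17.2 and 22.1. A day on which at least 1 array was dim gives only a bound, and folds against it were taken after raising each array to its own 40th percentile. The adjusted p beside such a fold comes from the fit to signals that were not raised. It therefore does not test the size of the printed bound. Of 13 listed tracheary element markers, 4 were named on the array and tested. The 4 were IRX10 and IRX15, which act in xylan synthesis, the aspartic protease AT4G04460 and the carboxypeptidase SCPL48. All were higher on day 10 than on day 0, beside 36.4% of all probe sets. On day 2, AT4G04460 and SCPL48 were already higher, beside 35.3% of all probe sets. Their highest means fell on day 6, or on day 4 for AT4G04460. None of the 7 listed leaf photosynthesis markers was named, and no single marker defines a suspension cell. In RNA from whole cultures, fewer cells of a type and less RNA per cell cannot be told apart.

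Over the 74 members, the median day 0 signal was 353, with means from 133 to 2219. The median over the members was 21.0 on day 2, then 13.3, 12.3, 13.5 and 14.4 on days 4, 6, 8 and 10. Both arrays were above the dim limit for all 74 members on day 0, which the rule requires, and for 34, 20, 19, 22 and 24 of them on the later days in order. The rule applies to day 2 as to each later day, so a large drop by day 2 is part of the selection. Of the members, 30 were dim on every later day. A smaller group of 12 kept both arrays above the limit on all 5 later days, and 44 did so on at least 1 of them. No member exceeded 366 after day 0, the value of 1 day 2 array of AT1G04660. For every member, both day 0 arrays exceeded all 10 later arrays, which the limits of the rule make nearly certain. The 2 arrays of day 0 differed by a median of 1.11-fold, and by over 2-fold for 2 members, AT2G41800 (190 and 407) and AT2G39980 (296 and 131).

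**Figure D1:**
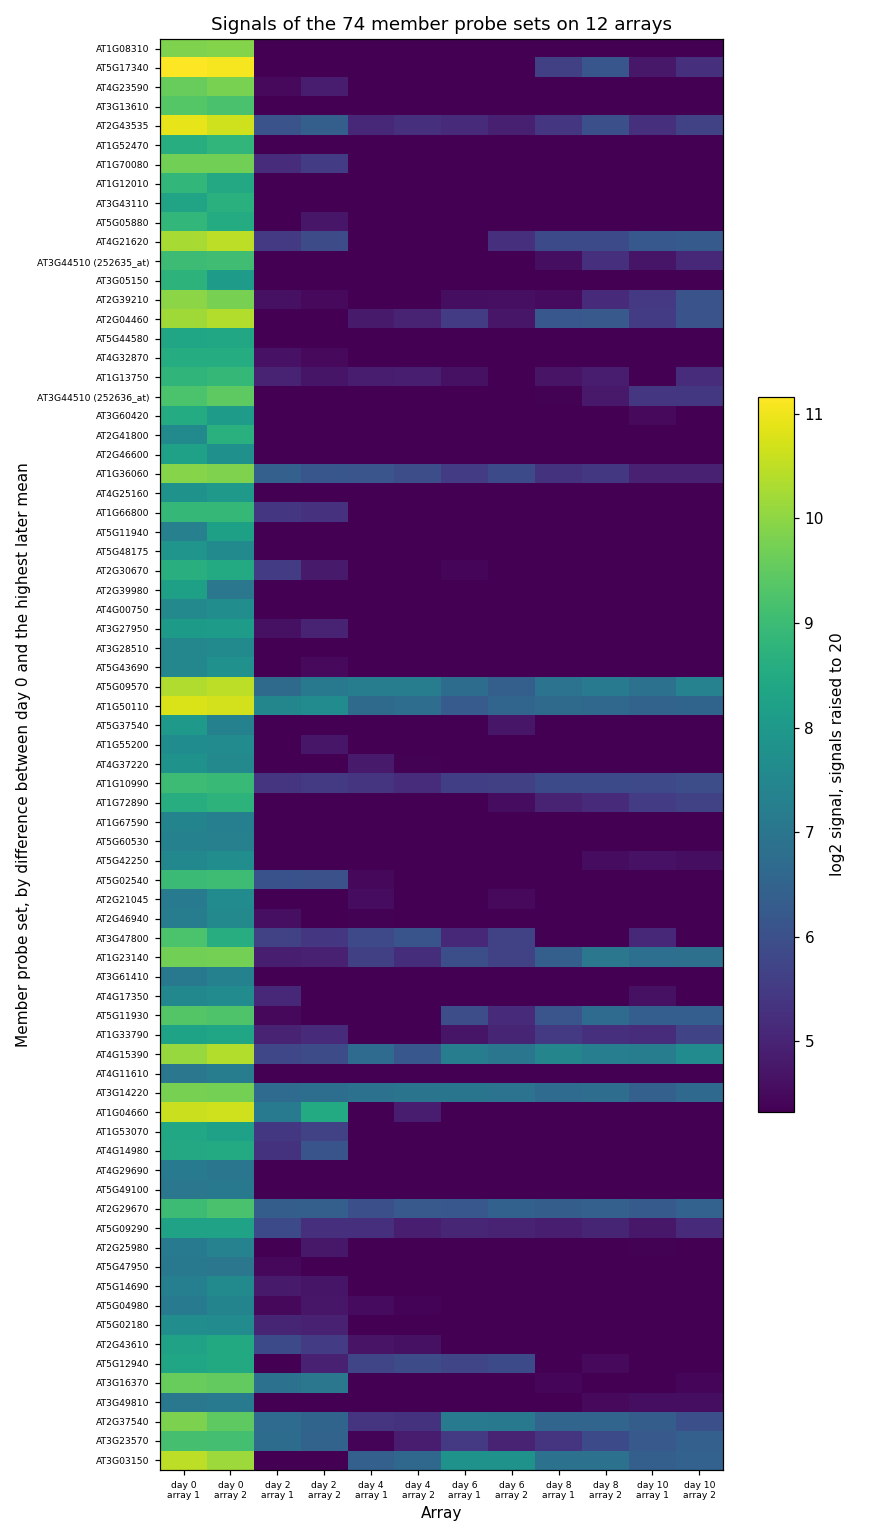
Signals of the 74 member probe sets (rows, ordered by the difference between day 0 and the highest later day) on the 12 arrays (columns), as log2 of signals raised to 20, so the darkest colour stands for 20 or less. Day 0 is bright for all members by the rule. After it, 30 rows stay dim, rows such as AT3G16370 and AT1G04660 are still lit on day 2, and rows such as AT4G15390 and AT1G23140 brighten again towards day 10.

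The difference between day 0 and the highest later day had a median of 3.1 on the log2 scale used by the rule, and ran from 2.5 to 5.54. Just inside the limit lay AT3G03150 at 2.501, AT3G23570 at 2.52 and AT2G37540 at 2.53. Just outside it were AT4G16240 at 2.47 and AT1G01300 and AT3G49220, both at 2.46. The lowest day 0 signals among the members were 128 for AT4G29690 and 130.5 for AT5G49100, and the nearest locus that missed only this limit, AT3G02500, had 113. For a member dim on every later day the difference is a lower bound set by the floor of 20, so the order of such members carries no meaning. In all, 182 probe sets met the signal limits. Besides the 74 members and AT1G23160, 10 of these read a gene with a symbol and 97 were listed with several genes or none.

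Most members that could be read still differed among days 2 to 10. A difference was read only where both arrays of at least 1 of the days compared were above the dim limit. Of 44 members that could be read, 40 differed among the 5 later days by limma's F test with Benjamini-Hochberg adjustment over all 15103 probe sets tested. That is 90.9%, beside 61.8% of all probe sets read in the same way. The count fell to 33 of 44 with signals raised to 20 and to 32 with arrays raised to their 40th percentile. Some of these calls thus rest on differences among dim signals, and the share over all probe sets was not counted under these settings. The 4 members not called were AT1G13750, AT4G17350, AT2G29670 and AT5G09290. The largest share of calls fell between days 2 and 4, where 20 of 38 members read were lower and 5 higher, or 52.6% and 13.2%. Over all probe sets 23.8% were lower and 23.1% higher in that step. Both arrays were above the dim limit for 34 members on day 2 and for 20 on day 4. Members dim on day 4 were thus read through day 2 alone, the day on which they were high. For them a call could hardly be other than lower. This holds for each member below that was dim on day 4 and above the limit on day 2. The members also lay nearer the dim limit than probe sets at large, so the shares over all probe sets are not a like reference. The median change of the members was -0.91, against -0.01 over all probe sets.

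After day 4 fewer members changed from one time to the next. Between days 4 and 6, 5 of 23 were higher (21.7%) and 2 lower (8.70%), beside 8.15% and 8.56% of all probe sets. Between days 6 and 8, 4 of 24 were higher (16.7%) and 4 lower (16.7%), beside 3.16% and 2.86%. The count of 8 between days 6 and 8 fell to 4 without array 1 of day 6, to 3 without array 2 of day 6 or array 1 of day 8, to 2 without array 2 of day 8, and to 2 without the variance trend. Between days 8 and 10, limma called 0 of 25 members in either direction, beside 0.0147% higher and 0.0588% lower over all probe sets, and 7 members had an unadjusted p under 0.05. Raising signals to 20, or arrays to their 40th percentile, gave 1 call in this step.

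Over the longer span from day 2 to day 10 members were called in both directions, the higher ones at a share near that of all probe sets. Of 42 that could be read, 19 were lower on day 10 (45.2%) and 13 higher (31.0%), beside 25.2% and 27% of all probe sets, and the median change was -0.43 against 0.00. Of the 20 members that were lower on day 4 than on day 2, 16 were also lower on day 10 and 4 were not called there. Of the 13 higher on day 10, 3 had also been higher on day 4, 4 were not called in that step and 6 could not be read in it. These comparisons share the arrays of day 2. Members dim on day 10 were likewise read through day 2 alone, and members dim on day 2 through day 10 alone. For these the direction of a call was nearly fixed by the reading, as it was for those dim on day 4. Both arrays were above the dim limit for 34 members on day 2 and for 24 on day 10. With each array centred on its median, 12 members were higher and 21 lower on day 10, and over all probe sets 19.1% and 34.7%, with a median of -0.17. The same centring gave 5 higher and 3 lower between days 4 and 6, beside 6.82% and 11.2%, and 3 higher and 4 lower between days 6 and 8, beside 1.44% and 3.77%.

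The later days also alternate between 27 C and 22 C. A contrast of days 2, 6 and 10 with days 4 and 8, which a straight trend over days does not move, called 4 of 44 members higher at 27 C (9.09%) and 1 lower (2.27%), beside 1.84% and 2.78% of all probe sets. The count of 5 fell to 3 without array 2 of day 6 and to 2 without array 1 of day 8. The members were AT2G37540, AT3G23570, AT4G14980 and AT4G32870 on the 27 C side and AT2G04460 on the 22 C side, and their values stand with their families below. Time and labelled temperature change together in this series, so this contrast also answers to any course with several turns.

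**Figure D2:**
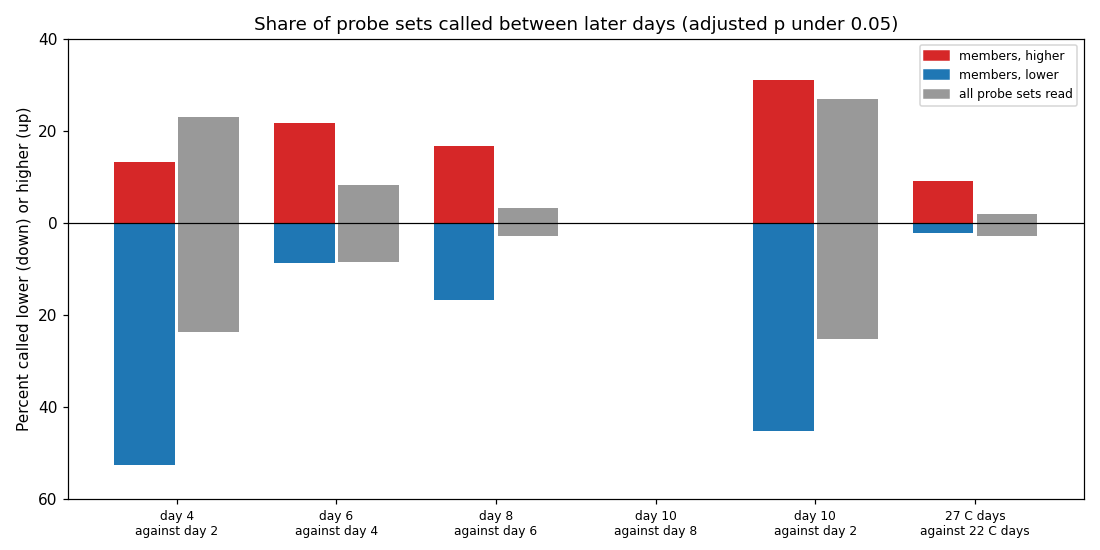
Percent of probe sets called higher (above the line) or lower (below it) in each comparison of later days, at an adjusted p under 0.05. Red and blue bars are the members that could be read and grey bars all probe sets read in the same way. The members' share of lower calls stands at 52.6% for day 4 against day 2, where all probe sets have 23.8%, and no member is called between days 8 and 10. Members dim on day 4 entered the step from day 2 through day 2 alone, so these shares are not like for like.

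Enzymes of small-molecule synthesis come first. Feruloyl-CoA 6-prime-hydroxylase, AT3G13610, makes the precursor of the coumarin scopoletin, and it read 651 and 587 at day 0, 10.8 and 4.37 at day 2, 1.61 and 1.48 at day 4, 0.9 and 0.88 at day 6, 1.31 and 1.0 at day 8, and 1.87 and 4.13 at day 10. AT1G12010, of the ACC oxidase family that makes ethylene, read 459 and 349 at day 0, 1.04 and 5.73 at day 2, 9.93 and 8.66 at day 4, 1.87 and 4.79 at day 6, 2.86 and 18 at day 8, and 8.49 and 8.28 at day 10. Both dioxygenases were dim on all 10 later arrays, at at least 28.1-fold and at least 18.2-fold lower than day 0 on every later day, and no change among those days was read.

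Both aminotransferases kept a trace on day 2. AT4G23590, of the tyrosine aminotransferase family, read 762 and 888 at day 0, 22.4 and 28.8 at day 2, 9.75 and 1.23 at day 4, 1.61 and 1.75 at day 6, 0.67 and 3.37 at day 8, and 0.67 and 4.93 at day 10. Its 2 day 2 arrays were above all 8 later ones. AT4G23590 was at least 1.28-fold lower on day 4 than on day 2 (adjusted p = 0.0451) and was at least 1.2-fold lower on day 10 than on day 2 (adjusted p = 0.0112). AT4G23590 did not pass in the step from day 2 to day 4 without either array of day 0, either array of day 2, array 2 of day 4 or either array of day 6, nor without the filter, with signals raised to 20, with arrays raised to their 40th percentile or without the variance trend (adjusted p from 0.0534 to 0.353). AT4G23590 did not pass in the difference of day 10 from day 2 without array 2 of day 2 or array 1 of day 10, nor with signals raised to 20 or with arrays raised to their 40th percentile (adjusted p from 0.0533 to 0.179). AT1G50110, an aminotransferase of the branched-chain amino acids leucine, isoleucine and valine, read 1758 and 1660.2 at day 0, 177 and 198 at day 2, 103 and 109.9 at day 4, 78.5 and 93.1 at day 6, 103 and 97.1 at day 8, and 90.1 and 91.4 at day 10. It was never dim, and both day 2 arrays lay above all later ones, which among themselves stayed within a narrow band. AT1G50110 fell from day 2 to day 4 (log2 change -0.81 ± 0.10, adjusted p = 7.66e-05) and fell from day 2 to day 10 (log2 change -1.04 ± 0.10, adjusted p = 1.00e-05).

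Of 4 enzymes of terpene and phenolic metabolism, 2 could be read between days 2 and 4. Both were read through day 2 alone, so lower was nearly the only call open to them, and both were called lower. AT1G70080, of the terpene synthase family, read 838 and 843 at day 0, 36.8 and 45.9 at day 2, 14.8 and 11.9 at day 4, 13.7 and 9.52 at day 6, 11.8 and 12.3 at day 8, and 6.88 and 10.9 at day 10. AT1G66800, a reductase like cinnamyl alcohol dehydrogenase, read 469 and 472 at day 0, 42.1 and 39 at day 2, 10.5 and 10.6 at day 4, 16.4 and 5.79 at day 6, 11 and 14.3 at day 8, and 6.04 and 16.6 at day 10. On day 2 both were above the dim limit on both arrays, and from day 4 on every array was dim. AT1G70080 was at least 2.06-fold lower on day 4 than on day 2 (adjusted p = 0.000383) and was at least 1.93-fold lower on day 10 than on day 2 (adjusted p = 3.18e-05). AT1G66800 was at least 2.03-fold lower on day 4 than on day 2 (adjusted p = 0.00672) and was at least 1.91-fold lower on day 10 than on day 2 (adjusted p = 0.0047). AT1G66800 did not pass in the difference of day 10 from day 2 without array 1 of day 10 (adjusted p = 0.0538). The UDP-glycosyltransferase AT5G05880, of the family that links sugars to small molecules, read 459 and 368 at day 0, 17.3 and 26.5 at day 2, 0.69 and 0.25 at day 4, 0.27 and 0.25 at day 6, 0.56 and 0.77 at day 8, and 0.46 and 0.32 at day 10. Its 8 arrays from day 4 on were below 1, while 1 array of day 2 was above the dim limit, so no later change was read. AT5G43690, of the sulfotransferase family, had 178 and 221 on day 0 and 0.71 to 22.7 later.

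The BAHD acyltransferases, which attach acyl groups to alcohols, amines and phenolics, differed among themselves. AT4G15390 read 1101 and 1320.3 at day 0, 55 and 60.7 at day 2, 105 and 71.9 at day 4, 146 and 129 at day 6, 174 and 153 at day 8, and 151 and 197 at day 10. Its lowest later day was day 2, and both arrays of days 6, 8 and 10 lay above both of day 4, with all later arrays still far below day 0. AT4G15390 rose from day 2 to day 4 (log2 change 0.59 ± 0.18, adjusted p = 0.0206), rose from day 4 to day 6 (log2 change 0.66 ± 0.18, adjusted p = 0.0301), and rose from day 2 to day 10 (log2 change 1.58 ± 0.18, adjusted p = 3.16e-05). AT4G15390 did not pass in the step from day 2 to day 4 without array 1 of day 2 (adjusted p = 0.102) or without array 1 of day 4 (adjusted p = 0.201). AT4G15390 did not pass in the step from day 4 to day 6 without array 2 of day 4 or either array of day 6, nor without the variance trend (adjusted p from 0.068 to 0.22). The rise from day 2 to day 10 passed under every setting tried. AT2G39980 read 296 and 131 at day 0, 11.8 and 6.68 at day 2, 3.83 and 4.42 at day 4, 4.68 and 6.4 at day 6, 7.63 and 5.55 at day 8, and 8.56 and 5.53 at day 10. AT5G47950 read 137 and 132 at day 0, 22 and 15.8 at day 2, 9.93 and 11.3 at day 4, 16.8 and 9.19 at day 6, 15.5 and 12.5 at day 8, and 11.4 and 19.3 at day 10. Neither had both arrays above the dim limit on any later day, in contrast with AT4G15390, which was dim on no array.

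**Figure D3:**
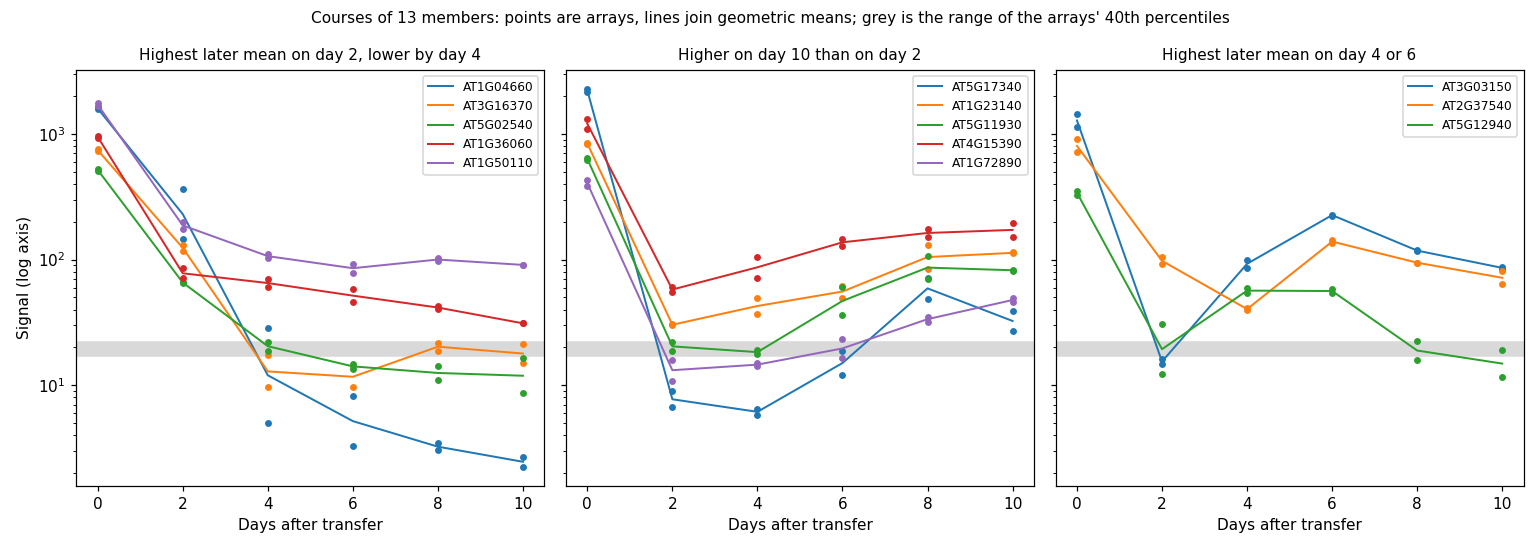
Signals of 13 members on the 12 arrays (points) by days after transfer, on a log axis, with lines through the geometric means and a grey band for the range of the arrays' 40th percentiles. The left panel holds members with their highest later mean on day 2, such as AT1G50110, the middle panel members higher on day 10 than on day 2, such as AT4G15390, and the right panel AT3G03150, AT2G37540 and AT5G12940, whose highest later mean fell on day 4 or 6.

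Of the dehydrogenases, 3 are of the short-chain family, which oxidise or reduce alcohols and ketones with a nicotinamide cofactor. AT5G02540 read 506 and 531 at day 0, 66.3 and 65.1 at day 2, 22.2 and 18.9 at day 4, 14.9 and 13.4 at day 6, 14.2 and 11 at day 8, and 8.61 and 16.5 at day 10. AT2G30670, like tropinone reductases, read 393 and 360.4 at day 0, 46.2 and 27.9 at day 2, 15.2 and 12.5 at day 4, 21.8 and 12.1 at day 6, 13.8 and 10.8 at day 8, and 12 and 16.9 at day 10. Both were highest after day 0 on day 2 and mostly dim from day 4 on. AT5G02540 was at least 3.18-fold lower on day 4 than on day 2 (adjusted p = 0.00038) and was at least 3.09-fold lower on day 10 than on day 2 (adjusted p = 2.04e-05). AT2G30670 was at least 1.8-fold lower on day 4 than on day 2 (adjusted p = 0.00447) and was at least 1.69-fold lower on day 10 than on day 2 (adjusted p = 0.00485). AT2G30670 did not pass in the difference of day 10 from day 2 without array 1 of day 2 (adjusted p = 0.0512). AT2G37540 took another course and read 903 and 714 at day 0, 104 and 91.9 at day 2, 41 and 39.7 at day 4, 143 and 136 at day 6, 94.7 and 94.3 at day 8, and 81 and 63.5 at day 10. Both day 6 arrays exceeded all other later arrays and both day 4 arrays lay below them all. AT2G37540 fell from day 2 to day 4 (log2 change -1.28 ± 0.14, adjusted p = 2.71e-05), rose from day 4 to day 6 (log2 change 1.79 ± 0.14, adjusted p = 1.91e-05), fell from day 6 to day 8 (log2 change -0.56 ± 0.14, adjusted p = 0.042), and fell from day 2 to day 10 (log2 change -0.45 ± 0.14, adjusted p = 0.0194). The alternation of AT2G37540 was 0.81 ± 0.09 (adjusted p = 0.000936), higher on the 27 C days, and passed under every setting tried. AT2G37540 did not pass in the step from day 6 to day 8 without either array of day 4, either array of day 6 or either array of day 8, nor without the filter or without the variance trend (adjusted p from 0.0556 to 0.182). AT2G37540 did not pass in the difference of day 10 from day 2 without array 1 of day 2 (adjusted p = 0.117) or without array 2 of day 10 (adjusted p = 0.177). AT5G42250, a zinc-binding alcohol dehydrogenase, read 183 and 205 at day 0, 14 and 11.1 at day 2, 13.5 and 9.11 at day 4, 8.85 and 16.7 at day 6, 19.6 and 23.3 at day 8, and 25.2 and 23.7 at day 10. Through day 6 it was dim, and both arrays of day 10 exceeded those of days 2 to 8. AT5G42250 was at least 1.32-fold higher on day 10 than on day 2 (adjusted p = 0.0201). AT5G42250 did not pass in the difference of day 10 from day 2 without array 2 of day 2 or either array of day 10, nor after quantile normalization (adjusted p from 0.062 to 0.116).

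Hydrolases of the alpha/beta fold, which cleave esters and other bonds, made up 5 probe sets. AT1G08310 read 915 and 946 at day 0, 2.41 and 7.04 at day 2, 11.6 and 2.16 at day 4, 9.3 and 5.66 at day 6, 15.1 and 15.2 at day 8, and 17.1 and 17.2 at day 10. AT1G52470 read 387 and 456 at day 0, 9.05 and 2.9 at day 2, 4.34 and 6.08 at day 4, 8.39 and 5.86 at day 6, 8.1 and 11.4 at day 8, and 8.75 and 11 at day 10. Both were dim on all later arrays, and were at least 42.2-fold and at least 19.1-fold lower than day 0 on every later day. AT3G44510 has 2 probe sets. The first read 513 and 539 at day 0, 4.99 and 6.28 at day 2, 4.56 and 1.04 at day 4, 11.9 and 8.52 at day 6, 23.7 and 38.2 at day 8, and 26.4 and 33.6 at day 10. The second read 594 and 707 at day 0, 3.66 and 0.4 at day 2, 1.37 and 0.8 at day 4, 7.14 and 0.83 at day 6, 20.4 and 27.8 at day 8, and 42.3 and 42.9 at day 10. Both were dim on days 2, 4 and 6 and above the dim limit on both arrays of day 10. AT3G44510 was at least 1.61-fold higher on day 10 than on day 2 (adjusted p = 0.00296) by the first and at least 2.3-fold higher (adjusted p = 0.00129) by the second. Both were read through day 10 alone, so that the 2 probe sets went the same way was nearly fixed by the reading. AT3G23570, of the dienelactone hydrolase type, read 569 and 560.5 at day 0, 106 and 91.1 at day 2, 21.1 and 28.5 at day 4, 44.5 and 31.8 at day 6, 41.9 and 57.8 at day 8, and 74.7 and 85.4 at day 10. Both day 4 arrays were below all other later arrays, and those of day 10 returned to near day 2. AT3G23570 fell from day 2 to day 4 (log2 change -2.01 ± 0.21, adjusted p = 1.77e-05). The alternation of AT3G23570 was 0.73 ± 0.14 (adjusted p = 0.0118). AT3G23570 did not pass in the alternation without array 1 of day 6 (adjusted p = 0.0539) or without array 1 of day 8 (adjusted p = 0.056).

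The GDSL lipases, a plant family of esterases many of which are secreted, had 3 members. AT3G16370 read 760.3 and 729 at day 0, 118 and 131 at day 2, 17.3 and 9.62 at day 4, 14.1 and 9.67 at day 6, 21.8 and 18.8 at day 8, and 14.9 and 21.4 at day 10. AT3G27950 read 265 and 274 at day 0, 24.9 and 31.3 at day 2, 5.96 and 1.1 at day 4, 8.22 and 5.33 at day 6, 10.6 and 10.2 at day 8, and 11.1 and 12.1 at day 10. In both, the 2 day 2 arrays lay above all later arrays. AT3G16370 was at least 6.22-fold lower on day 4 than on day 2 (adjusted p = 4.61e-06) and was at least 5.83-fold lower on day 10 than on day 2 (adjusted p = 1.17e-05). AT3G27950 was at least 1.4-fold lower on day 4 than on day 2 (adjusted p = 0.000595). AT3G14220 read 865 and 859.5 at day 0, 105 and 112 at day 2, 119 and 124 at day 4, 126 and 121 at day 6, 105 and 109 at day 8, and 85.1 and 101 at day 10. It was dim on no array and its 10 later arrays spanned less than a 1.5-fold range. AT3G14220 was called by the F among later days (adjusted p = 0.0188) but in no step between neighbouring days.

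Of 5 phosphatases and related enzymes, 3 could be read among the later days and AT5G04980 was called by the F. The purple acid phosphatase AT1G13750, of a family that frees phosphate from organic compounds, had 448 and 471 on day 0 and 17.2 to 36.7 later, and was not called among later days (F, adjusted p = 0.505). AT5G09290, of the inositol monophosphatase family, read 310.0 and 306 at day 0, 57.7 and 38.1 at day 2, 37.7 and 30.1 at day 4, 33.5 and 31.9 at day 6, 29.96 and 32.5 at day 8, and 27 and 34.9 at day 10. AT5G09290 fell from day 2 to day 10 (log2 change -0.61 ± 0.21, adjusted p = 0.0288), though its F among later days did not pass (adjusted p = 0.101). AT5G09290 did not pass in the difference of day 10 from day 2 without array 1 of day 2 (adjusted p = 0.258), without array 1 of day 10 (adjusted p = 0.197) or from the arrays of the days compared alone (adjusted p = 0.071). AT5G04980, of the inositol polyphosphate 5-phosphatase family, read 143 and 169 at day 0, 22.1 and 26.9 at day 2, 22.8 and 21 at day 4, 14.9 and 16.9 at day 6, 17 and 15.1 at day 8, and 17.5 and 17.7 at day 10. Its arrays of days 2 and 4 lay above those of days 6, 8 and 10, which were dim, so the sizes of these differences are bounds. AT5G04980 passed the F among later days (adjusted p = 0.0449) and no single step. The F of this gene alone was not looked at under the other settings. The nucleotide pyrophosphatase relative AT4G29690 had 143 and 128 on day 0 and 3.09 to 11.9 later, and the phosphoglycerate mutase relative AT3G60420 had 369.6 and 271 and 1.31 to 22.4. The aspartyl protease AT5G37540 had 259 and 162 on day 0 and 8.24 to 26.4 later. None of these last 3 had both arrays above the dim limit on a later day.

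The 3 transporters took different courses. AT3G05150, a sugar transporter of the ERD6-like group found at the vacuole, read 428 and 272 at day 0, 0.96 and 2.11 at day 2, 0.99 and 0.6 at day 4, 1.01 and 0.93 at day 6, 0.84 and 0.77 at day 8, and 1.56 and 1.7 at day 10. Its 10 later arrays were all below 2.2 and it was at least 15.5-fold lower than day 0 on every later day. AT2G39210, of the major facilitator family, read 998 and 861 at day 0, 24.8 and 22.5 at day 2, 18.9 and 16.6 at day 4, 23.7 and 24.1 at day 6, 22.8 and 35.3 at day 8, and 43.9 and 67.4 at day 10. Both day 10 arrays exceeded all other later ones. AT2G39210 rose from day 2 to day 10 (log2 change 1.202 ± 0.23, adjusted p = 0.00128), and this passed under every setting tried. AT5G02180, an amino acid transporter, read 205 and 198 at day 0, 32.5 and 31.2 at day 2, 12.8 and 12.5 at day 4, 18.3 and 10.8 at day 6, 8.37 and 13.5 at day 8, and 10.7 and 17.4 at day 10. It was above the dim limit on day 2 and dim on both arrays of each day from day 4 on. AT5G02180 was at least 1.6-fold lower on day 4 than on day 2 (adjusted p = 0.00553) and was at least 1.5-fold lower on day 10 than on day 2 (adjusted p = 0.00802). AT5G02180 did not pass in the difference of day 10 from day 2 without array 1 of day 10 (adjusted p = 0.0826).

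Lectins, which bind sugars, went 2 ways. AT1G53070, a legume-type lectin, read 342 and 301 at day 0, 43.4 and 50.2 at day 2, 6.52 and 3.63 at day 4, 1.86 and 5.89 at day 6, 4.7 and 7.64 at day 8, and 8.58 and 14 at day 10. It was above the dim limit only on days 0 and 2. AT1G53070 was at least 2.34-fold lower on day 4 than on day 2 (adjusted p = 0.000312) and was at least 2.19-fold lower on day 10 than on day 2 (adjusted p = 0.00495). AT1G33790, a jacalin-type lectin, read 314 and 329.6 at day 0, 32 and 35 at day 2, 6.46 and 14.5 at day 4, 26 and 32.5 at day 6, 44.4 and 37.5 at day 8, and 36.8 and 53.2 at day 10. On day 4 both arrays were dim, and on every other day both were above the limit. AT1G33790 was at least 1.68-fold lower on day 4 than on day 2 (adjusted p = 0.000794) and was at least 1.46-fold higher on day 6 than on day 4 (adjusted p = 0.00663). AT1G33790 did not pass in the step from day 4 to day 6 with signals raised to 20 (adjusted p = 0.0764) or with arrays raised to their 40th percentile (adjusted p = 0.0671). AT2G25980, the other jacalin-type lectin, read 142 and 163 at day 0, 17.2 and 27 at day 2, 17.8 and 11.7 at day 4, 16.2 and 12.4 at day 6, 18.9 and 17.6 at day 8, and 20.4 and 19.2 at day 10. It had both arrays above the dim limit on no later day.

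Among proteins of the cell surface and wall, the glycine-rich protein AT1G04660 read 1569 and 1624 at day 0, 145 and 366 at day 2, 5.04 and 28.6 at day 4, 3.28 and 8.21 at day 6, 3.06 and 3.45 at day 8, and 2.24 and 2.71 at day 10. The day 2 arrays differed by 2.53-fold, yet both exceeded the 8 arrays after them. AT1G04660 was at least 9.45-fold lower on day 4 than on day 2 (adjusted p = 0.000443) and was at least 10.8-fold lower on day 10 than on day 2 (adjusted p = 1.70e-05). AT2G43610, of the chitinase family, read 310.2 and 353 at day 0, 58.5 and 46.8 at day 2, 25.6 and 25 at day 4, 14.2 and 13.1 at day 6, 16.2 and 13.8 at day 8, and 17.4 and 19.1 at day 10. Day 2 lay above day 4 and day 4 above all later arrays. AT2G43610 fell from day 2 to day 4 (log2 change -1.05 ± 0.18, adjusted p = 0.000597), was at least 1.22-fold lower on day 6 than on day 4 (adjusted p = 0.00664), and was at least 2.46-fold lower on day 10 than on day 2 (adjusted p = 3.56e-05). AT2G43610 did not pass in the step from day 4 to day 6 with signals raised to 20 (adjusted p = 0.0967) or with arrays raised to their 40th percentile (adjusted p = 0.228). AT5G12940, a leucine-rich repeat protein, read 328 and 354 at day 0, 12.2 and 30.8 at day 2, 53.8 and 59.7 at day 4, 54.1 and 58.4 at day 6, 15.9 and 22.5 at day 8, and 11.6 and 19.1 at day 10. Its arrays of days 4 and 6 stood above all arrays of days 2, 8 and 10. AT5G12940 was at least 2.29-fold higher on day 4 than on day 2 (adjusted p = 0.00499) and was at least 2.52-fold lower on day 8 than on day 6 (adjusted p = 0.0316). AT5G12940 did not pass in the step from day 6 to day 8 without either array of day 6 or either array of day 8, nor without the variance trend (adjusted p from 0.0741 to 0.177). AT2G41800, of the DUF642 family of wall proteins, had 189.9 and 407 on day 0 and 1.05 to 7.57 later. AT4G00750, a putative methyltransferase, had 186 and 203 and 5.24 to 12.8. Both were dim throughout days 2 to 10.

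Members with regulatory or signalling domains numbered 8. AT1G36060, a transcription factor of the AP2/ERF family, read 971 and 926 at day 0, 85.5 and 70.9 at day 2, 69.5 and 61 at day 4, 45.9 and 58.2 at day 6, 40.3 and 42.9 at day 8, and 31.1 and 31.2 at day 10. No array of it was dim, and both day 10 arrays were below all other arrays. AT1G36060 fell from day 2 to day 10 (log2 change -1.32 ± 0.14, adjusted p = 1.86e-05), with no call in any single step. The C2 domain protein AT1G23140, of a kind that can bind membrane lipids, read 833 and 846 at day 0, 30.1 and 30.6 at day 2, 49.1 and 37.2 at day 4, 62.2 and 49.9 at day 6, 84.4 and 130.2 at day 8, and 112 and 114 at day 10. AT1G72890, of the TIR-NBS family of resistance proteins, read 385 and 427 at day 0, 16 and 10.9 at day 2, 15.1 and 14.1 at day 4, 16.5 and 23.4 at day 6, 32.1 and 35.2 at day 8, and 45.8 and 49.7 at day 10. In both, day 10 lay above days 2, 4 and 6. AT1G23140 rose from day 6 to day 8 (log2 change 0.91 ± 0.19, adjusted p = 0.0236) and rose from day 2 to day 10 (log2 change 1.900 ± 0.19, adjusted p = 1.32e-05). AT1G23140 did not pass in the step from day 6 to day 8 without either array of day 6 or array 2 of day 8, nor without the variance trend or from the arrays of the days compared alone (adjusted p from 0.057 to 0.145). AT1G72890 was at least 2.58-fold higher on day 10 than on day 2 (adjusted p = 3.93e-05).

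The U-box proteins, which act in attaching ubiquitin to other proteins, had 2 members. AT3G49810 read 134 and 144 at day 0, 15.1 and 12.8 at day 2, 13.2 and 13.8 at day 4, 17 and 18 at day 6, 19.1 and 22.5 at day 8, and 23.8 and 24 at day 10. AT4G25160, a U-box protein with a kinase domain, read 224 and 253 at day 0, 2.66 and 4.86 at day 2, 7.08 and 1.51 at day 4, 9.84 and 7.81 at day 6, 2.87 and 5.99 at day 8, and 5.45 and 6.62 at day 10. The first was above the dim limit on both arrays of day 10 and the second was dim on every later array. AT3G49810 was at least 1.29-fold higher on day 10 than on day 2 (adjusted p = 0.00556). The second C2 domain protein, AT4G11610, read 132 and 148 at day 0, 11.8 and 14.9 at day 2, 15.2 and 18.6 at day 4, 17.9 and 16.3 at day 6, 17 and 18.8 at day 8, and 11.8 and 16.4 at day 10. The EF-hand calcium-binding protein AT2G46600 had 304 and 215 on day 0 and 1.67 to 12.7 later, and the remorin AT1G67590, of a family of membrane-bound proteins, had 169.7 and 156 and 1.39 to 8.2. These 3 had both arrays above the dim limit on no later day.

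**Figure D4:**
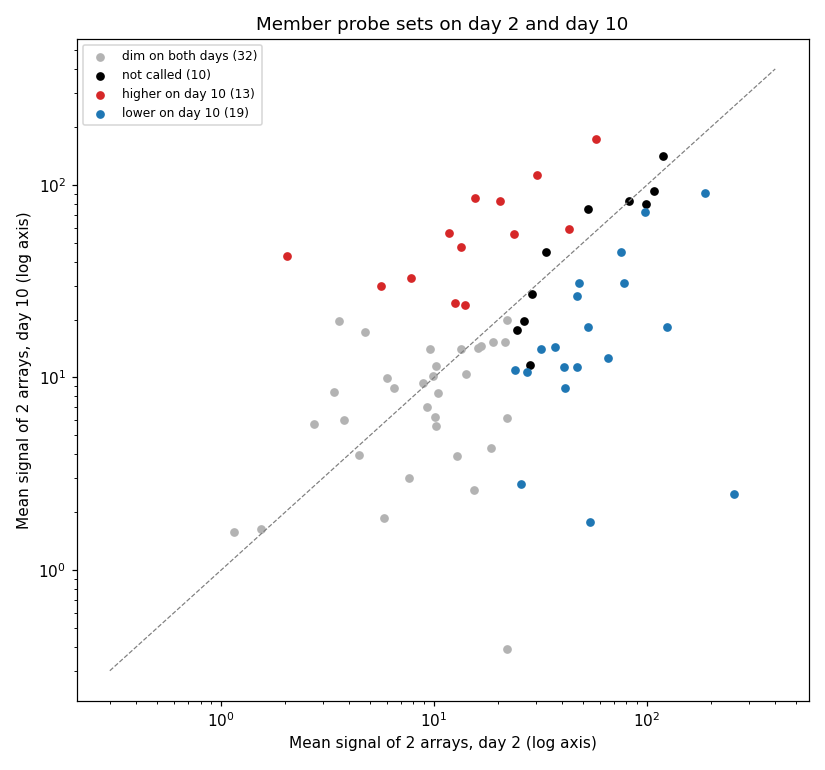
Mean signal of the 74 member probe sets on day 2 (x axis) and day 10 (y axis), both on log axes, with the dashed line marking equal means. Red points are the 13 members higher on day 10, blue points the 19 lower, black points the 10 read and not called, and grey points the 32 with both arrays above the dim limit on neither day.

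Stress and redox proteins included AT5G11930, a glutaredoxin, one of the small proteins that reduce disulfides. It read 641 and 626 at day 0, 22.2 and 18.8 at day 2, 19.1 and 17.7 at day 4, 60.9 and 36.1 at day 6, 70.5 and 106 at day 8, and 82.7 and 81.9 at day 10. Both arrays of days 6, 8 and 10 lay above both arrays of days 2 and 4. AT5G11930 was at least 2.35-fold higher on day 6 than on day 4 (adjusted p = 0.00307) and rose from day 2 to day 10 (log2 change 2.01 ± 0.24, adjusted p = 3.63e-05). AT5G09570, a mitochondrial protein with a pair of CX9C motifs, read 1303 and 1425 at day 0, 103 and 135 at day 2, 147 and 149 at day 4, 108 and 83.8 at day 6, 123 and 143 at day 8, and 119 and 164 at day 10. It was never dim, and both day 4 arrays lay above those of days 2, 6 and 8. AT5G09570 fell from day 4 to day 6 (log2 change -0.64 ± 0.17, adjusted p = 0.029). AT5G09570 did not pass in the step from day 4 to day 6 without either array of day 4 or array 2 of day 6, nor without the variance trend (adjusted p from 0.0713 to 0.189). AT4G37220, like the WCOR413 cold acclimation proteins, read 231 and 185 at day 0, 10.2 and 8.88 at day 2, 28.4 and 20.6 at day 4, 18.6 and 17.9 at day 6, 18.7 and 19.3 at day 8, and 16.5 and 11.6 at day 10. It was above the dim limit on day 4 and not on both arrays of any other later day. AT4G37220 was at least 1.31-fold higher on day 4 than on day 2 (adjusted p = 0.000879). AT4G37220 did not pass in the step from day 2 to day 4 with signals raised to 20 (adjusted p = 0.177) or with arrays raised to their 40th percentile (adjusted p = 0.0852). AT2G21045, an arsenate reductase of the rhodanese type, had 141 and 198 on day 0 and 11.8 to 23.6 later.

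Another 5 members fit no shared family. AT4G14980, with C1 zinc-binding domains, read 347 and 366 at day 0, 39.7 and 68.5 at day 2, 1.11 and 0.93 at day 4, 1.08 and 0.75 at day 6, 0.44 and 0.42 at day 8, and 2.32 and 1.22 at day 10. AT4G32870, of the polyketide cyclase and START-like fold, read 379.7 and 378 at day 0, 25.4 and 22.4 at day 2, 2.43 and 1.95 at day 4, 4.69 and 9.79 at day 6, 8.27 and 14 at day 8, and 10.9 and 11.1 at day 10. Both were above the dim limit on day 2 and dim from day 4 on. AT4G14980 was at least 2.62-fold lower on day 4 than on day 2 (adjusted p = 8.82e-06) and was at least 2.45-fold lower on day 10 than on day 2 (adjusted p = 1.93e-05). AT4G32870 was at least 1.2-fold lower on day 4 than on day 2 (adjusted p = 2.01e-05) and was at least 1.12-fold lower on day 10 than on day 2 (adjusted p = 0.0231). AT4G32870 did not pass in the step from day 2 to day 4 with arrays raised to their 40th percentile (adjusted p = 0.121). AT4G32870 did not pass in the difference of day 10 from day 2 without either array of day 2 or either array of day 10, nor with arrays raised to their 40th percentile (adjusted p from 0.0614 to 0.296). The alternation was 2.14 ± 0.35 for AT4G14980 (adjusted p = 0.00639) and 1.12 ± 0.24 for AT4G32870 (adjusted p = 0.0232), with day 2 the one 27 C day on which either was above the dim limit. AT4G14980 did not pass in the alternation with signals raised to 20 (adjusted p = 0.186) or with arrays raised to their 40th percentile (adjusted p = 0.205). AT4G32870 did not pass in the alternation without array 2 of day 4, array 2 of day 6 or array 1 of day 8, nor with signals raised to 20, with arrays raised to their 40th percentile or with the pseudocount (adjusted p from 0.0516 to 0.857).

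AT2G04460, which RefSeq lists as a pseudogene, read 1171 and 1327 at day 0, 11.4 and 12 at day 2, 28.1 and 32 at day 4, 46.2 and 26.9 at day 6, 73.1 and 75.9 at day 8, and 45.5 and 67 at day 10. Both day 2 arrays were dim, and signals were above the limit from day 4 on. AT2G04460 was at least 1.62-fold higher on day 4 than on day 2 (adjusted p = 0.000732), rose from day 6 to day 8 (log2 change 1.08 ± 0.24, adjusted p = 0.0261), and was at least 2.98-fold higher on day 10 than on day 2 (adjusted p = 1.75e-05). Its alternation was -0.66 ± 0.16 (adjusted p = 0.0378). AT2G04460 did not pass in the step from day 2 to day 4 with signals raised to 20 (adjusted p = 0.0828). AT2G04460 did not pass in the step from day 6 to day 8 without array 2 of day 6 or either array of day 8, nor without the variance trend or from the arrays of the days compared alone (adjusted p from 0.052 to 0.149). AT2G04460 did not pass in the alternation without either array of day 2, either array of day 4, array 2 of day 6, either array of day 8 or array 1 of day 10, nor after quantile normalization, without the filter, with signals raised to 20, with arrays raised to their 40th percentile or without the variance trend (adjusted p from 0.0529 to 0.146). AT3G47800, like galactose mutarotases, which interconvert forms of sugars, read 594 and 382 at day 0, 51.1 and 42.2 at day 2, 57.2 and 69.2 at day 4, 34.1 and 50.5 at day 6, 19.8 and 15.1 at day 8, and 33.8 and 18.9 at day 10. Both arrays were above the dim limit on days 2, 4 and 6, while day 8 was dim. AT3G47800 was at least 1.89-fold lower on day 8 than on day 6 (adjusted p = 0.0345) and was at least 1.73-fold lower on day 10 than on day 2 (adjusted p = 0.0306). AT3G47800 did not pass in the step from day 6 to day 8 without either array of day 6 or either array of day 8, nor with signals raised to 20, with arrays raised to their 40th percentile or without the variance trend (adjusted p from 0.0538 to 0.209). AT3G47800 did not pass in the difference of day 10 from day 2 without either array of day 2 or array 2 of day 10, nor without the variance trend (adjusted p from 0.0546 to 0.27). AT3G28510, an AAA-type ATPase, had 179 and 195 on day 0 and 0.55 to 15.7 later.

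For 16 members no family is given here. AT5G17340 read 2295 and 2143 at day 0, 9.0 and 6.66 at day 2, 6.47 and 5.85 at day 4, 18.9 and 12 at day 6, 48.9 and 71.2 at day 8, and 27.3 and 38.7 at day 10. It was dim through day 6 and above the limit on both arrays of days 8 and 10. AT5G17340 was at least 2.83-fold higher on day 8 than on day 6 (adjusted p = 0.00344) and was at least 1.75-fold higher on day 10 than on day 2 (adjusted p = 8.00e-05). AT3G03150 read 1434 and 1143 at day 0, 16.2 and 14.8 at day 2, 85.8 and 100.1 at day 4, 228 and 224 at day 6, 119 and 117 at day 8, and 83.8 and 88.1 at day 10. Day 2 was its lowest later day and day 6 its highest, and no arrays of neighbouring later days overlapped. AT3G03150 was at least 5.0-fold higher on day 4 than on day 2 (adjusted p = 6.21e-08), rose from day 4 to day 6 (log2 change 1.29 ± 0.12, adjusted p = 7.05e-05), fell from day 6 to day 8 (log2 change -0.94 ± 0.12, adjusted p = 0.00314), and was at least 4.64-fold higher on day 10 than on day 2 (adjusted p = 6.94e-08). All 4 of these passed under every setting tried. AT4G21620 read 1235 and 1423 at day 0, 44.7 and 60.7 at day 2, 19.4 and 19.5 at day 4, 18.5 and 38.5 at day 6, 57.7 and 58.5 at day 8, and 73.5 and 76.2 at day 10. A single array was dim on each of days 4 and 6, and both day 10 arrays lay above all other later arrays. AT4G21620 was at least 2.59-fold lower on day 4 than on day 2 (adjusted p = 0.00117) and was at least 2.02-fold higher on day 8 than on day 6 (adjusted p = 0.0344). AT4G21620 did not pass in the step from day 6 to day 8 without array 1 of day 6, either array of day 8 or either array of day 10, nor after median centring of the arrays, without the variance trend or from the arrays of the days compared alone (adjusted p from 0.0542 to 0.146).

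AT2G43535 read 1914 and 1642 at day 0, 67.8 and 83.8 at day 2, 33.8 and 37.8 at day 4, 35.1 and 30.4 at day 6, 42.6 and 63.3 at day 8, and 38.7 and 50.6 at day 10. Its day 2 arrays were above all later ones. AT2G43535 fell from day 2 to day 4 (log2 change -1.08 ± 0.20, adjusted p = 0.00111) and fell from day 2 to day 10 (log2 change -0.77 ± 0.20, adjusted p = 0.00761). AT2G43535 did not pass in the difference of day 10 from day 2 without array 2 of day 2 (adjusted p = 0.0682) or without array 1 of day 10 (adjusted p = 0.0763). AT1G10990 read 514 and 493 at day 0, 41 and 44.9 at day 2, 40.8 and 36.7 at day 4, 48.2 and 49.5 at day 6, 57.8 and 58.5 at day 8, and 56.6 and 61.5 at day 10. The arrays of days 8 and 10 were above all arrays of days 2, 4 and 6. AT1G10990 rose from day 2 to day 10 (log2 change 0.46 ± 0.11, adjusted p = 0.00595). AT1G10990 did not pass in the difference of day 10 from day 2 after median centring of the arrays (adjusted p = 0.0639). AT5G14690 read 156 and 194 at day 0, 28.4 and 26.1 at day 2, 11.8 and 15.5 at day 4, 6.04 and 10.8 at day 6, 8.95 and 13.9 at day 8, and 11.5 and 9.86 at day 10. It was above the dim limit on day 2 and dim on all 8 arrays after it. AT5G14690 was at least 1.37-fold lower on day 4 than on day 2 (adjusted p = 0.0235) and was at least 1.28-fold lower on day 10 than on day 2 (adjusted p = 0.00442). AT5G14690 did not pass in the step from day 2 to day 4 without array 1 of day 2 (adjusted p = 0.0943), without array 2 of day 2 (adjusted p = 0.0661) or without array 1 of day 4 (adjusted p = 0.134).

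AT2G29670 had 516 and 593 on day 0 and 63.6 to 88.3 on the 10 later arrays. It was dim on none of them and was not called among the later days (F, adjusted p = 0.333). AT4G17350 had 182 and 199 on day 0 and 14.6 to 33.6 later, and was not called either (F, adjusted p = 0.276). AT3G43110 read 319 and 404 at day 0, 4.41 and 4.43 at day 2, 8.44 and 1.27 at day 4, 6.94 and 1.72 at day 6, 6.9 and 9.06 at day 8, and 3.37 and 4.56 at day 10. It was dim on all later arrays. AT5G44580 had 324 and 338 on day 0 and 5.55 to 11.7 later, AT5G48175 236 and 193 and 5.43 to 11.5, AT1G55200 201 and 197 and 3.19 to 26.7, and AT5G60530 159.6 and 158 and 1.34 to 16.4. AT2G46940 had 150.2 and 185 on day 0 and 1.63 to 24.1 later, AT3G61410 137 and 159.8 and 0.74 to 1.97, and AT5G49100 130.5 and 136 and 5.56 to 15.8. These 7 had both arrays above the dim limit on no later day.

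The place of the members in the genome was read from the order of RefSeq genes, with no coordinates used. All 73 genes were placed, and 50 of their direct neighbours were tested and were not members. On day 2, 19 of the 50 were lower than on day 0 (38%) and 12 higher (24%), beside 26.1% and 35.3% of all probe sets. On day 10, 23 were lower (46%) and 14 higher (28%), beside 27.6% and 36.4%. The day 2 and day 10 comparisons share the day 0 arrays, on which the members were chosen to be high.

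A single pair of members was adjacent, the glutaredoxin AT5G11930 and the subtilase AT5G11940, a serine protease. AT5G11940 read 159 and 294 at day 0, 13.2 and 7.27 at day 2, 13.8 and 13.6 at day 4, 13 and 7.28 at day 6, 12.3 and 13.9 at day 8, and 14.8 and 8.27 at day 10. It was dim on every later array, while AT5G11930 rose again after day 4. On the other side of AT5G11930 lies cwINV6, a gene of the cell wall invertase family, which split sucrose, and it read 1077 and 891 at day 0, 65.3 and 39.1 at day 2, 26.9 and 18.2 at day 4, 25.8 and 22 at day 6, 26.4 and 26.4 at day 8, and 28.1 and 27.1 at day 10. cwINV6 met the signal limits of the rule and has a symbol, so it is no member. It is counted among the 50 neighbours above as lower on both days. That all 3 neighbouring genes had their highest signals on day 0 follows from those limits and is a description.

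**Figure D5:**
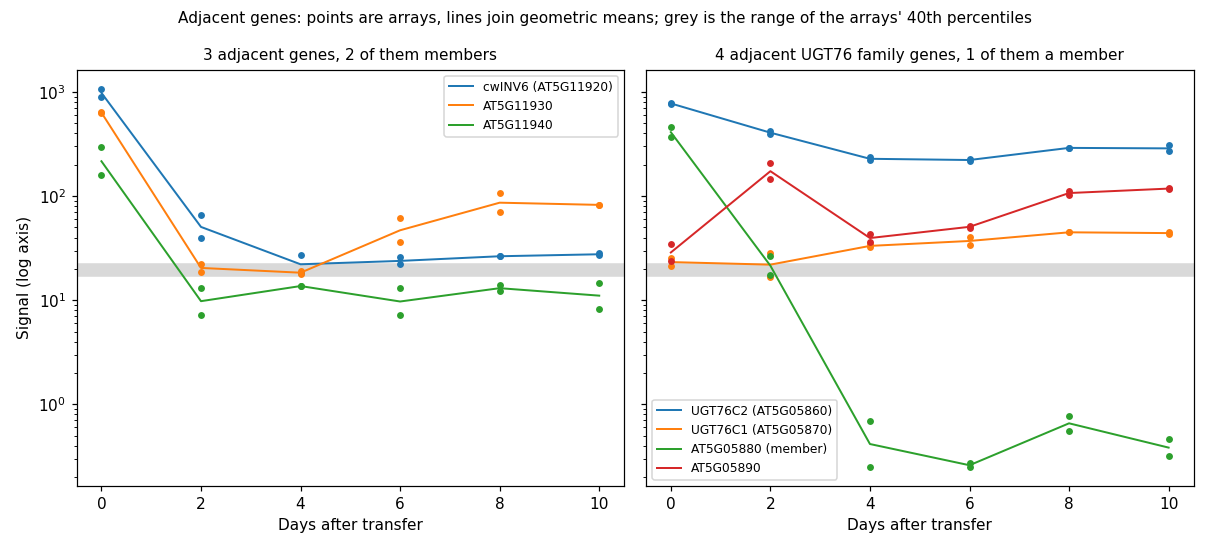
Signals on the 12 arrays (points) by days after transfer, on a log axis, for 2 runs of adjacent genes, with lines through the geometric means and a grey band for the range of the arrays' 40th percentiles. On the left, cwINV6 and the members AT5G11930 and AT5G11940 all drop after day 0 and AT5G11930 comes back. On the right, the member AT5G05880 drops below 1 while AT5G05890 next to it goes up on day 2.

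Other neighbours chosen after their values were seen went either way. Beside the short-chain dehydrogenase AT5G02540, AT5G02550 fell from a mean of 147 on day 0 to 10.9 on day 2 and 1.76 on day 10. Beside AT1G72890, AT1G72900 went from 115.5 to 8.40 on day 2 and 48.1 on day 10. Next to the amino acid transporter AT5G02180, AT5G02170 went from 138.5 to 62.0 and 15.7. Opposite courses were found as well. AT4G25170, beside the U-box protein AT4G25160, went from 16.9 on day 0 to 34.4 on day 2 and 244 on day 10. AT2G29660, beside AT2G29670, had a mean of 53.1 on day 10, while its means of 1.07 on day 0 and 5.34 on day 2 were both below the dim limit of every array, so its day 2 difference is not read. The other differences from day 0 passed (limma, adjusted p at most 0.00213). Neighbour means below 17.2 lie under the dim limit of every array, so changes to or from them are bounds whose size these p-values do not test. Whether probes of adjacent copies read each other's transcripts was not tested.

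Genes of pathways around the members were read from 7 lists of 96 genes, of which the annotation names 33, and 21 were tested and are not members. On day 2, 12 of the 21 were lower than on day 0 and 6 higher, and on day 10 these counts were 10 and 7, against the shares of all probe sets given above. Among the lower genes, GH3.5 and the glycosyltransferase UGT76B1 met the signal limits of the rule and were left out only for having a symbol. Both are in the counts above as lower on both days, though their fall from day 0 follows from those limits and is a description. Of 4 GH3 auxin-conjugating enzymes tested, GH3.1, GH3.3 and GH3.17 were lower on both days, beside 26.1% of all probe sets on day 2 and 27.6% on day 10. GH3.5 was lower by the limits just named. GH3.5 had 656 and 796 on day 0, 22.9 on average on day 2 (log2 change -4.99) and 55.5 on day 10 (log2 change -3.74), given with no test. GH3.17 fell less by day 2, from a mean of 1309 to 652 (log2 change -1.01 ± 0.09, adjusted p = 1.87e-06) and 205 on day 10 (log2 change -2.67 ± 0.09, adjusted p = 8.65e-10). GH3.3 went from 520.0 to 33.4 (log2 change -3.97 ± 0.38, adjusted p = 3.62e-06) and then back to 208 on day 10 (log2 change -1.32 ± 0.38, adjusted p = 0.00918), a difference that did not pass without array 1 of day 10 (adjusted p = 0.0527). GH3.1 was dim on all later arrays (day 2, at least 1.87-fold lower, adjusted p = 0.00241).

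Of 3 Aux/IAA repressors of auxin response tested, IAA30 was lower on both days and IAA18 and IAA29 higher. IAA30 had means of 147 on day 0, 36.9 on day 2 (log2 change -1.99 ± 0.17, adjusted p = 1.74e-06) and 70.9 on day 10 (log2 change -1.05 ± 0.17, adjusted p = 0.000237). IAA29 was dim on day 0 and rose by day 10 (at least 3.42-fold higher, adjusted p = 3.32e-08). On day 2 it was at least 1.06-fold higher (adjusted p = 0.000196), a call lost with signals raised to 20 (adjusted p = 1) or with arrays raised to their 40th percentile (adjusted p = 0.612). IAA18 rose on day 2 (log2 change 0.91 ± 0.08, adjusted p = 3.11e-06), while its small rise on day 10 (log2 change 0.23 ± 0.08, adjusted p = 0.0326) turned to -0.0034 with arrays centred on their medians and did not pass after quantile normalization, without the variance trend, from the arrays of the days compared alone, or without array 1 of day 0 or either array of day 10 (adjusted p from 0.0523 to 0.245). The LBD16 and HAT2 transcription factors were lower on day 2 (log2 change -1.37 ± 0.17, adjusted p = 3.59e-05 for LBD16 and log2 change -0.64 ± 0.18, adjusted p = 0.00926 for HAT2), HAT2 not without array 1 of day 0 or of day 2 (adjusted p from 0.0955 to 0.101), and neither was called on day 10 with the values as deposited (log2 change -0.35 ± 0.17, adjusted p = 0.0993 for LBD16 and log2 change -0.41 ± 0.18, adjusted p = 0.0668 for HAT2). On day 10 LBD16 passed as lower after quantile normalization (log2 change -0.54, adjusted p = 0.0176) and with arrays centred on their medians (log2 change -0.58, adjusted p = 0.00909). HAT2 passed as lower on day 10 with that centring (log2 change -0.64, adjusted p = 0.00778), without array 2 of day 0 (log2 change -0.71, adjusted p = 0.00326) and without either array of day 2 (adjusted p = 0.0496 and 0.0499). None of 12 listed auxin transport genes was named on the array. Of the coumarin list, to which the member AT3G13610 belongs, 3 other genes were tested. AT1G28680, which closes the coumarin ring, had means of 274 on day 0, 72.4 on day 2 (log2 change -1.92 ± 0.13, adjusted p = 2.14e-07) and 79.5 on day 10 (log2 change -1.79 ± 0.13, adjusted p = 2.80e-07). AT1G55290, the close relative of AT3G13610, and the glucosidase BGLU42 were not called on either day in the fit to all arrays. On day 10 BGLU42 (log2 change -0.23 ± 0.14, adjusted p = 0.152) passed as lower after quantile normalization (log2 change -0.44, adjusted p = 0.0119) and with arrays centred on their medians (log2 change -0.47, adjusted p = 0.00703). AT1G55290 (log2 change -0.86 ± 0.61, adjusted p = 0.242) passed as lower on day 10 from the arrays of the days compared alone (adjusted p = 0.0224) and without array 1 or array 2 of day 8 (adjusted p = 0.0375 and 0.0448).

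Of the sugar transporter list, to which AT3G05150 belongs, 3 other genes were tested, all of the same ERD6-like group. AT1G54730 fell on day 2 (log2 change -1.85 ± 0.12, adjusted p = 1.82e-07) and day 10 (log2 change -1.71 ± 0.12, adjusted p = 2.47e-07). AT3G05400 rose (log2 change 2.05 ± 0.23, adjusted p = 1.19e-05 and log2 change 1.72 ± 0.23, adjusted p = 4.34e-05), and so did AT1G19450 (log2 change 2.099 ± 0.15, adjusted p = 4.03e-07 and log2 change 1.301 ± 0.15, adjusted p = 1.63e-05). The group of AT3G05150 therefore held genes that changed in each direction. Among 6 other UGT76 glycosyltransferases tested beside AT5G05880, UGT76B1, UGT76C2 and UGT76D1 were lower on both days. UGT76B1, which met the signal limits of the rule, had means of 855 on day 0, 110.1 on day 2 (log2 change -2.93) and 26.5 on day 10 (log2 change -5.004). Its values are a description with no test. UGT76C2, which glucosylates cytokinins, fell on day 2 (log2 change -0.93 ± 0.08, adjusted p = 2.15e-06) and day 10 (log2 change -1.43 ± 0.08, adjusted p = 5.18e-08). UGT76D1 was dim on both later days, and its day 2 call was lost without array 1 of day 0 or either array of day 2 (adjusted p from 0.0659 to 0.117), its day 10 call without array 1 of day 10 (adjusted p = 0.084). AT5G05890, the direct neighbour of AT5G05880, read 34.9 and 23.6 at day 0, 145 and 208 at day 2, 36 and 43.4 at day 4, 51.6 and 49.7 at day 6, 111 and 103 at day 8, and 120.4 and 116 at day 10. It rose on day 2 (log2 change 2.59 ± 0.20, adjusted p = 7.50e-07) and was higher on day 10 (log2 change 2.04 ± 0.20, adjusted p = 4.38e-06), opposite to the member. UGT76C1 rose on day 10 (log2 change 0.93 ± 0.24, adjusted p = 0.00497), and UGT76E2 passed on both days while dim on all arrays of days 0, 2 and 10, so no size is read, and these calls were lost with signals raised to 20 (adjusted p = 1 on each day).

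The 10 genes with a symbol that met the same signal limits give a reference for the kind of gene the annotation rule left out. They were SAL2, cwINV6, FHL, WES1, YLS5, PWD, KICP-02, ALDH2C4, UGT76B1 and HHP2, with rule differences from 2.54 to 4.47. WES1 is the array's name for GH3.5. SAL2, an inositol monophosphatase relative as AT5G09290 is, read 412 and 480.1 at day 0, 6.9 and 4.65 at day 2, 6.48 and 5.6 at day 4, 8.17 and 6.49 at day 6, 6.71 and 4.51 at day 8, and 9.3 and 8.2 at day 10. ALDH2C4, an aldehyde dehydrogenase that acts on phenolic aldehydes, read 666 and 697 at day 0, 74.8 and 79.5 at day 2, 24.9 and 15.2 at day 4, 22.5 and 13.9 at day 6, 11.5 and 14.5 at day 8, and 9.37 and 16.6 at day 10. SAL2 was dim on every later array, while ALDH2C4 was still above the limit on day 2. These genes were picked by the same values as the members, so they are a description and no support for the pattern.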

How the data were processed

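The values are probe set intensities on a linear scale, as deposited by the authors in 1 table of 12 arrays. MAS5 produced them, per the submitters' processing notes (version not given in the sources used here). The deposited intensities had the same 2% trimmed mean of 100 on every array, so arrays were already scaled. From 22810 probe sets, 64 controls were dropped. The platform annotation gave 1 gene for 13513 probe sets, several for 503 and none for 8730, which are unnamed here. RefSeq gene order and synonyms came from TAIR10.1.

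Testing required that at least 1 day had both arrays at or above their 40th percentile, met by 15103 probe sets and missed by 7643. All members passed this filter through day 0, by construction. The model, in limma 3.58.1 under R 4.3.3, gave log2 intensity a mean for each day and no block. Variances were moderated with a trend on intensity (eBayes), with 6 residual and a median of 5.19 prior degrees of freedom. All tests were 2-sided. Benjamini-Hochberg adjustment ran over all probe sets tested, and an adjusted p under 0.05 made a call. The code was tested on simulated data. The number of arrays, 2 a day, limits the precision.

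The members, the gene lists and the tests were chosen with earlier results of these data known. All members may be named. Every array is printed for the 12 members with the largest rule differences, those called by the F, list members, adjacent members and shared families, and list genes that were called are named up to 4 a list. Alternatives were quantile normalization, median centring, no filter or one at the 60th percentile, raising signals to 20 or to the 40th percentile, adding 8.50 (the arrays' median 25th percentile) as a pseudocount, dropping the variance trend, a replicate block, a fit on the compared days only, leaving out probe sets that several transcripts share, and leaving out each array, where the lone array is assumed to vary like the others.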

Additional observations from a re-analysis of the deposited data

How the results depend on the processing

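Counts of members called kept within 1.5 times under most settings. Leaving out each array in turn gave 22 to 26 for day 4 against day 2 (25 with all arrays), 5 to 7 for day 6 against day 4 (7), 2 to 9 for day 8 against day 6 (8), 0 to 0 for day 10 against day 8 (0), 25 to 33 for day 10 against day 2 (32), 2 to 7 for the alternation (5) and 35 to 39 for the F (40). The same gave 16 to 18 pathway list genes changed on day 2 (18) and 14 to 18 on day 10 (17). The counts outside 1.5 times were 2 between days 6 and 8 with no variance trend, 4, 3, 3 and 2 there without array 1 or 2 of day 6 or array 1 or 2 of day 8, 3 and 2 in the alternation without array 2 of day 6 or array 1 of day 8, and 1 between days 8 and 10 with signals raised to 20 or arrays raised to their 40th percentile. The rule itself gave 72 to 77 members without 1 array, 49 with signals raised to 40, 41 with a difference of 3 and 46 with a day 0 signal of 240, settings that are stricter by construction.

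Of 119 named differences, 73 kept their direction and their side of the threshold under every setting. The reversals were all of changes from day 0 that were small. On day 2, AT1G55290 was at 0.0417 without array 2 of day 2 and -0.794 without array 1. BGLU42 was at -0.0707 after quantile normalization, -0.0571 with arrays centred on their medians, -0.0533 without array 2 of day 0, and from -0.134 to 0.1487 without 1 array. UGT76C1 was at 0.0423 with signals raised to 20, 0.0553 without array 2 of day 0, and from -0.4636 to 0.3003 without 1 array. IAA18 on day 10 was at -0.0034 with arrays centred on their medians. The cause was not tested.

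Deviations of same-numbered arrays from their day means correlated from -0.07 to 0.13 over 15 pairs of days, with 4 above 0.1. Whether same-numbered arrays share a culture cannot be read from these low correlations, and the main fit used no block. With the replicate block the counts were 25, 7, 8, 0 and 32 in the steps above, in that order, and 7 in the alternation. Dim signals limit what can be read: 30 of 74 members gave no later change.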
